A study of Mus musculus with 8 samples.

Results

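Small RNAs of male mouse primordial germ cells (mPGCs) at E15.5 were compared with those at E13.5 (E, embryonic day), with 2 libraries at each stage and 4 of the 8 libraries of the series in all. The members of the comparison were miRNA gene sets, that is, a miRNA gene or the group of miRNA genes that a read matched equally well. A read of 20 to 24 nt that was found exactly in a GENCODE mouse miRNA transcript was counted as a miRNA read, and 517 gene sets had such reads in the 4 libraries, of 571 in all 8. Other annotated small RNAs and classes of read length were compared in the same way. Both groups were germ cells that carried the GOF18 Oct4-EGFP reporter, which is active in germ cells of the fetal gonad. By the labels the cells were male, C57BL/6J, from pooled genital ridges and sorted on SSEA1 and CD61. The study's methods give an FVB/C57BL/6J background, EGFP sorting, and pooled embryos from a different litter for each replicate. The spread between replicates therefore includes that between litters, and the design holds no control other than the earlier stage.

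miRNAs are cut from hairpin transcripts by Drosha and Dicer and guide Argonaute proteins to mRNAs, which they find mainly through the seed near their 5′ end. piRNAs are longer, often begin with U, are bound by PIWI proteins and act against transposable elements in the male germ line. In the fetal testis, male germ cells stop dividing and become prospermatogonia in the days over which these cells were taken, and piRNAs accumulate in them.

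The sequences below are the mature miRNAs on which the comparison of gene sets turned, copied from RefSeq on GRCm38.p6, with the seed (bases 2 to 8) in capitals. All 18 genes looked up had a RefSeq mature sequence. The first 8 come from a cluster on the minus strand of chromosome X, between 66776760 and 66826025, that is known for expression in the testis. miR-871-5p and miR-743a-5p share a seed, and the other 6 each have their own.
miR-871-3p: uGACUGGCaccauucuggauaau
miR-871-5p: uAUUCAGAuuagugccagucaug
miR-743a-5p: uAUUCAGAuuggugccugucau
miR-743a-3p: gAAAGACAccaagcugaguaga
miR-470-5p: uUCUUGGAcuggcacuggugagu
miR-465c-5p: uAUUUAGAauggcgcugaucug
miR-741-3p: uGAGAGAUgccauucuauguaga
miR-881-3p: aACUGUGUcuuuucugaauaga

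The next come from the Mir290 to Mir295 cluster on the plus strand of chromosome 7, between 3218639 and 3220837, whose miRNAs are abundant in pluripotent and early germ cells. Those shown fall into a group with the seed CUCAAAC and a group with the seed AAGUGCU. miR-93-5p, from the Mir106b-25 cluster, carries the same bases shifted by a single position.
miR-290a-5p: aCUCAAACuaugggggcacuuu
miR-292a-5p: aCUCAAACugggggcucuuuug
miR-293-5p: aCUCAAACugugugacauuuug
miR-291a-3p: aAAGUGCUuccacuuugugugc
miR-294-3p: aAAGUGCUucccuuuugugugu
miR-295-3p: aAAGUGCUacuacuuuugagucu
miR-93-5p: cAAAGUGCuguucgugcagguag

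The last are the mature miRNA of the second gene set called higher, at chr12:109594565-109594586 on the plus strand, and abundant miRNAs at both stages. miR-92a-3p is at chr14:115044476-115044496 on the plus strand, miR-125a-5p at chr17:17830817-17830840 on the plus strand and miR-183-5p at chr6:30169711-30169732 on the minus strand.
miR-434-3p: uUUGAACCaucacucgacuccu
miR-92a-3p: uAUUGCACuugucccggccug
miR-125a-5p: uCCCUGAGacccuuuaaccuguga
miR-183-5p: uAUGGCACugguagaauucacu

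The deposited counts summed to 12043363 and 19734948 in the E13.5 libraries and to 13601492 and 26552524 in the E15.5 libraries, replicate 1 first here and below. miRNA reads numbered 1755844 and 4195075 at E13.5 and 301643 and 501867 at E15.5. The counts of distinct sequences had a peak at 1 and a second, upper peak, which lay at 332 and 69.8 counts in the E13.5 libraries and at 34.9 and 1117 counts in the E15.5 libraries. If a value at the upper peak is taken as 1 unit, the miRNA reads were 5289, 60108, 8644 and 449.4 units. In E15.5 replicate 2 a unit was thus 0.223% of miRNA reads, against 0.00166% to 0.0189% in the other 3 libraries, and miRNAs below that share cannot be resolved there. The random bases at the read ends had been cut off without serving as molecular identifiers, which leaves PCR copies in the counts. The 95% Wilson intervals given below were taken over these units and hold only the error of counting. For 2 libraries set against 2, an exact two-sided permutation test cannot give a p below 0.33.

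miRNA reads were 14.6% (interval 14.2 to 14.9) and 21.3% (21.1 to 21.4) of all counts at E13.5, and 2.22% (2.17 to 2.26) and 1.89% (1.72 to 2.07) at E15.5. The means were 17.9% ± 4.72 and 2.05% ± 0.232 (SD, n = 2 each), an 8.72-fold lower share at E15.5 with no overlap between stages (exact permutation test, p = 0.33). Over the same libraries, reads of 24 to 32 nt went from 15.97% and 25.9% of all counts to 82.6% and 86.0%. Set against the reads outside 24 to 32 nt, all miRNA reads at E15.5 were 0.571 times those at E13.5. This is a ratio and not a share, since miRNA reads of 24 nt are in the numerator alone. Shares do not give molecules per cell, so a lower share and fewer molecules in each cell cannot be told apart.

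Taken as shares of all counts, 80 of 378 miRNA gene sets tested were lower at E15.5 (21.2%) and 0 were higher (0%) at an adjusted p under 0.05 in edgeR, with 112 at an unadjusted p under 0.05. The median log2 fold change of all sets tested was -3.45, and those of the 80 lower sets ran from -2.48 to -8.70. Mir292, the most abundant set of the Mir290 to Mir295 cluster, had 2.03% and 2.67% of all counts at E13.5 and 0.207% and 0.155% at E15.5. It fell by 3.70 (standard error 0.48, edgeR adjusted p = 0.00063). Mir92-1, a member of the Mir17-92 cluster that promotes proliferation, fell by 3.16 (standard error 0.48, edgeR adjusted p = 0.0011). Mir871 had 0.221% and 0.234% of all counts at E13.5 and 0.115% and 0.168% at E15.5. Its log2 fold change of -0.68 (standard error 0.61, edgeR adjusted p = 0.42) did not pass the test. Of the 8 sets of the Mir290 to Mir295 cluster 7 were lower and of the 17 tested sets of the X-linked cluster 0 were lower, where the background was 21.2%. The medians of the log2 fold changes were -3.94 and -2.08 for these lists. Without E13.5 replicate 2, 2 sets were higher and the count of lower sets stayed between 64 and 79 whichever library was left out.

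Taken as shares of miRNA reads, 2 of 393 gene sets tested were higher at E15.5 (0.509%) and 0 were lower (0%) at an adjusted p under 0.05 in edgeR, with 31 at an unadjusted p under 0.05. These sets were Mir871 and Mir434, and the median log2 fold change of all sets tested was -0.28. DESeq2 on the same counts and library sizes called 9 higher and 6 lower. The number called depended on single libraries. Without E13.5 replicate 1 it was 1 higher, without E13.5 replicate 2 it was 5 higher, without E15.5 replicate 1 it was 14 higher and 23 lower, and without E15.5 replicate 2 it was 3 higher and 2 lower. In 49 sets (12.47%) both E15.5 libraries lay above both E13.5 libraries, and in 72 sets (18.32%) both lay below.

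**Figure D1:**
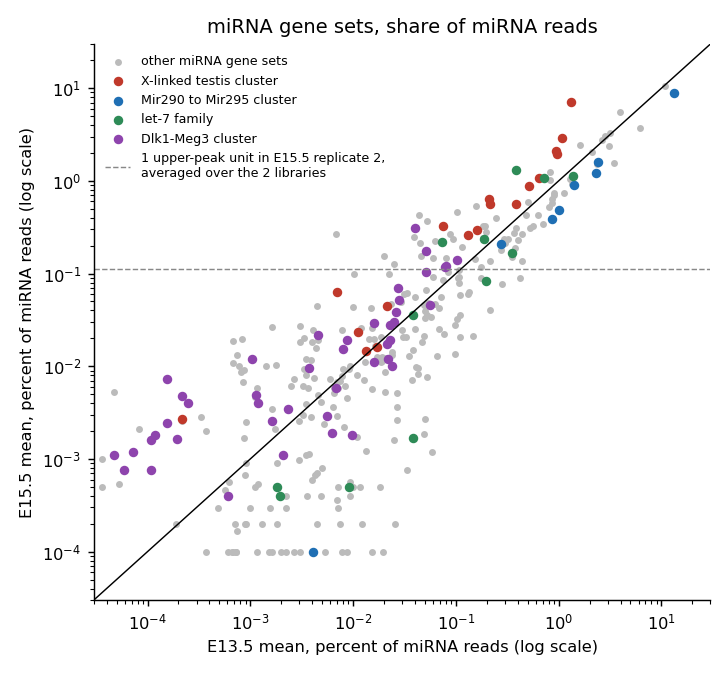
Mean share of miRNA reads at E13.5 (x axis) and at E15.5 (y axis), in percent on log scales, for 361 tested gene sets with reads at both stages; each point is a set, the colours mark 4 lists, the solid line marks equal shares and the dashed line the share that 1 unit in E15.5 replicate 2 adds to the mean. Sets of the X-linked testis cluster lie mostly above the line of equal shares, Mir871 farthest among the abundant ones, and sets of the Mir290 to Mir295 cluster lie below it.

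Mir871 rose within the miRNA reads. It made up 1.51% (interval 1.22 to 1.88) and 1.10% (1.02 to 1.19) of miRNA reads at E13.5, and 5.18% (4.74 to 5.67) and 8.89% (6.61 to 11.9) at E15.5. Both E15.5 libraries were above both E13.5 libraries, the means differed 5.38-fold, and its rank among all sets went from 18 to 3. The log2 fold change was 2.43 (standard error 0.39, edgeR adjusted p = 2.5e-05). It passed the test under each alternative tried, with log2 fold changes of 1.99 to 2.77 when single libraries were left out. Its 3p arm carried most reads, with 1.39% and 1.01% of miRNA reads at E13.5 and 4.90% and 8.41% at E15.5. Of these 3p reads between 96.3% and 98.9% began at the RefSeq 5′ end in the 4 libraries, so the seed GACUGGC was kept. The 5p arm moved with it, from 0.124% and 0.0891% to 0.285% and 0.481%.

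The other miRNAs of the X-linked cluster lay near Mir871 on chromosome X and none of them passed the test with all libraries and the main scaling. Mir470 passed in edgeR without E15.5 replicate 2 (adjusted p = 0.011) and with counts divided by the upper peak (adjusted p = 0.00032), and in DESeq2 with the median of ratios (adjusted p = 0.033). Mir465c-1/Mir465c-2 passed with counts divided by the upper peak (edgeR adjusted p = 0.0051). Mir470 had 1.01% and 1.17% of miRNA reads at E13.5 and 3.57% and 2.29% at E15.5, a log2 fold change of 1.43 (standard error 0.46, edgeR adjusted p = 0.20). Mir465c-1/Mir465c-2 had 0.913% and 0.975% at E13.5 and 2.55% and 1.69% at E15.5. Both sets were higher in both E15.5 libraries. Mir878 had 0.195% and 0.231% at E13.5 and 0.473% and 0.657% at E15.5. Mir881 had 0.156% and 0.268% at E13.5 and 0.513% and 0.753% at E15.5. As sets both were again above the E13.5 range. Reads of miR-881-3p overlapped, however, with 0.394% and 0.178% at E15.5 against 0.207% in E13.5 replicate 2. Mir881 reads in E15.5 replicate 2 were mostly 5p reads (0.574%). In all 4 libraries 0% of its 5p reads began at the RefSeq 5′ end. Mir878 reads in E15.5 replicate 2 were also mostly 5p reads (0.517%). Of its 3p reads 0.571% began at the RefSeq 5′ end there, against 94.95% to 100% in the other libraries. Mir741 overlapped between stages, with 0.654% and 0.627% at E13.5 and 1.52% and 0.654% at E15.5. Mir743 had 0.541% and 0.497% at E13.5 and 1.23% and 0.551% at E15.5, so that its E15.5 replicate 2 was barely above the higher E13.5 library. Its miR-743a-3p reads overlapped, with 0.499% and 0.463% at E13.5 and 1.06% and 0.364% at E15.5. Mir743b overlapped as well, with 0.283% and 0.495% at E13.5 and 0.958% and 0.168% at E15.5. In E15.5 replicate 2, Mir741, Mir878 and Mir881 each rested on about 3 units.

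Over the X-linked list, 18 of 19 sets with reads were tested, 1 was called higher and 0 lower, where 0.509% and 0% of all sets were. Both E15.5 libraries were above both E13.5 libraries in 9 of the 18, beside 12.47% of all sets. The log2 fold change was above 0 in 17 of the 18, beside 168 of the 393, with a median of 1.07 beside -0.28 for all sets. Summed, the list had 6.46% and 6.98% of miRNA reads at E13.5 and 19.6% and 18.1% at E15.5, 2.80 times as much on average. As a share of all counts the same list had 0.942% and 1.48% at E13.5 and 0.434% and 0.341% at E15.5, which was lower in both E15.5 libraries. The order of the stages for this list thus turned with the denominator. With TMM normalization 16 of the 18 sets were above 0, and the median of all sets was -0.14. With DESeq2 size factors from the median of ratios all 18 were, and that median was 0.32. With a replicate block 15 of the 18 were above 0. Without E15.5 replicate 1 just 11 were above 0 and 7 below, with a median of -1.04 for all sets. Without E13.5 replicate 1 it was 16 above, and without E13.5 replicate 2 or E15.5 replicate 2 it was 18. The number of sets above 0 thus depended in part on E15.5 replicate 1.

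**Figure D2:**
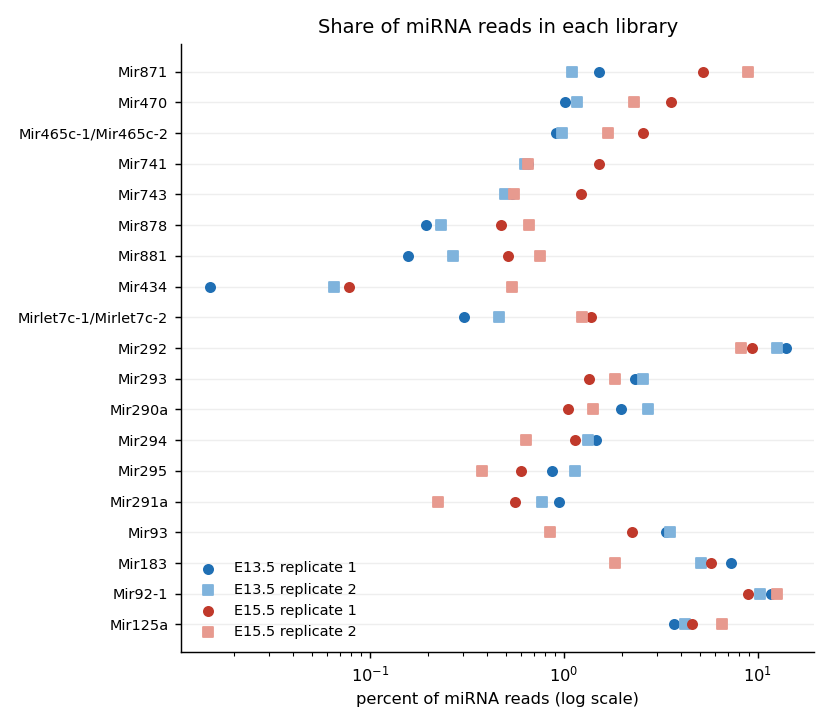
Share of miRNA reads (x axis, percent, log scale) of 19 miRNA gene sets in each of the 4 libraries; each row is a set, and colour and symbol give the stage and replicate. The upper rows of the X-linked cluster have their E15.5 symbols to the right except for Mir741, which overlaps, the rows of the Mir290 to Mir295 cluster have them to the left, and Mir92-1 overlaps between stages.

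The Mir290 to Mir295 cluster had the largest share of any list at E13.5. Summed, it had 21.8% and 21.3% of miRNA reads at E13.5 and 14.3% and 12.9% at E15.5, 0.630 times as much on average. All 8 sets of the list were tested and 0 passed, beside 0.509% of all sets called higher and 0% lower. All 8 log2 fold changes were below 0, beside 220 of the 393, and their median was -0.79 beside -0.28 for all sets. Both E15.5 libraries were below both E13.5 libraries in 7 of the 8, beside 18.32% of all sets. Mir292 had 13.9% (interval 12.99 to 14.9) and 12.6% (12.3 to 12.8) at E13.5 and 9.36% (8.76 to 9.99) and 8.18% (6.04 to 11.2) at E15.5. Its log2 fold change was -0.59 (standard error 0.20, edgeR adjusted p = 0.20), and it was the most abundant set at E13.5 and second at E15.5. Mir290a had 1.97% and 2.70% at E13.5 and 1.05% and 1.41% at E15.5. Mir293 had 2.31% and 2.54% at E13.5 and 1.34% and 1.83% at E15.5. For Mir294 the values were 1.46% and 1.33% at E13.5 and 1.15% and 0.639% at E15.5, and Mir295 and Mir291a also did not overlap. In the fit without E15.5 replicate 1, in which E15.5 replicate 2 stands alone and is assumed to vary like the other groups, Mir292, Mir294, Mir295 and Mir291a passed the test, though Mir291a rested there on about 1 unit. Without E15.5 replicate 2 none of these passed, and Mir291a went from -1.93 to -0.62 and Mir294 from -1.13 to -0.28 between these fits. Mir290a passed with counts divided by the upper peak (log2 fold change -1.11, edgeR adjusted p = 0.027). With DESeq2 size factors from the median of ratios 7 of the 8 remained below 0.

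By seed, reads with CUCAAAC from Mir292, Mir290a and Mir293 made up 13.6% and 12.99% of miRNA reads at E13.5 and 8.41% and 8.06% at E15.5. Reads with AAGUGCU, mainly from Mir294, Mir295 and Mir291a, had 2.31% and 2.19% at E13.5 and 1.83% and 0.894% at E15.5. Reads with AAAGUGC, mainly from Mir93, Mir20a and Mir17, had 5.14% and 5.26% at E13.5 and 3.37% and 2.35% at E15.5. Each of these seeds was lower in both E15.5 libraries. The seed AUUCAGA, shared by miR-871-5p, miR-743a-5p and some Mir881 reads, had 0.148% and 0.174% at E13.5 and 0.524% and 0.779% at E15.5. The seed AUUGCAC of miR-92a-3p and its relatives was the most frequent at both stages and overlapped, with 15.9% and 13.1% at E13.5 and 13.1% and 16.5% at E15.5.

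Mir92-1 itself had 11.6% and 10.2% of miRNA reads at E13.5 and 8.84% and 12.55% at E15.5, which overlapped. Its log2 fold change of -0.03 (standard error 0.23) changed sign under several alternatives. The list of the Mir17-92, Mir106a-363 and Mir106b-25 clusters had 22.8% and 19.7% at E13.5 and 17.3% and 19.5% at E15.5, with 0 of 16 sets called, beside 0.509% of all sets called higher and 0% lower, and 7 of the 16 lower in both E15.5 libraries, beside 18.32% of all sets. Mir93, hosted in the replication gene Mcm7, was one of these 7, with 3.35% and 3.52% at E13.5 and 2.25% and 0.850% at E15.5. Mir183, whose cluster is best known from sensory organs, had 7.24% and 5.08% at E13.5 and 5.71% and 1.83% at E15.5. Both Mir93 and Mir183 were lowest in E15.5 replicate 2, where they rested on about 4 and 8 units, and both passed the test without E15.5 replicate 1 (log2 fold changes -2.01 and -1.75, edgeR adjusted p = 1.9e-06 and 3.4e-08) and not without E15.5 replicate 2. Mir125a, of a family that acts in differentiation, had 3.67% and 4.22% at E13.5 and 4.58% and 6.53% at E15.5, and did not pass the test (edgeR adjusted p = 0.87). Mir30d, Mir26a-1/Mir26a-2, Mir92-2 and Mir182 overlapped between stages. Mir103-1/Mir103-2 and Mir30c-1/Mir30c-2 were lower in both E15.5 libraries, and Mir423 reached 3.71% in E15.5 replicate 2 against 1.19% to 1.68% in the other 3 libraries. None of these other sets passed the test. The most abundant Mir182 read among those counted had 24 nt, the upper limit, and any longer Mir182 reads were not counted.

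The let-7 family, which represses growth and pluripotency targets, had 3.54% and 3.23% of miRNA reads at E13.5 and 4.41% and 4.13% at E15.5. Of 13 sets tested 0 passed, beside 0.509% of all sets called higher and 0% lower. The log2 fold change was above 0 in 5 and below 0 in 8, beside 168 and 220 of the 393. Mirlet7c-1/Mirlet7c-2 had 0.307% (interval 0.186 to 0.491) and 0.463% (0.413 to 0.522) at E13.5 and 1.38% (1.16 to 1.66) and 1.24% (0.614 to 2.88) at E15.5. Its log2 fold change was 1.77 (standard error 0.58, edgeR adjusted p = 0.20), and its E15.5 libraries were above both E13.5 libraries. It passed in edgeR without E15.5 replicate 1 (adjusted p = 0.027), without E15.5 replicate 2 (adjusted p = 0.048) and with counts divided by the upper peak (adjusted p = 0.00036), and in DESeq2 with the median of ratios (adjusted p = 0.0087), at log2 fold changes of 1.69 to 2.36. Mirlet7a-1/Mirlet7a-2 had 0.726% and 0.710% at E13.5 and 1.14% and 1.03% at E15.5. Mirlet7e overlapped, with 1.59% and 1.17% at E13.5 and 1.18% and 1.07% at E15.5.

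Mir434, of the imprinted Dlk1-Meg3 cluster on chromosome 12, had 0.0149% (interval 0.00334 to 0.107) and 0.0655% (0.0475 to 0.0887) of miRNA reads at E13.5, and 0.0782% (0.0392 to 0.167) and 0.538% (0.122 to 1.61) at E15.5. Its log2 fold change was 2.94 (standard error 0.74, edgeR adjusted p = 0.045). The intervals of the E13.5 libraries and of E15.5 replicate 1 overlap, and E15.5 replicate 2 rested on about 2 units. Without E15.5 replicate 2 the log2 fold change was 0.96 (edgeR adjusted p = 0.84), and with counts divided by the upper peak it was 0.85 (adjusted p = 0.46). It also missed the test without E13.5 replicate 1 (log2 fold change 2.24), with the replicate block (log2 fold change 2.83, adjusted p = 0.19), with only the 4 libraries compared (2.94, adjusted p = 0.37) and with TMM normalization (3.28, adjusted p = 0.21), where the fold was about as large. In E15.5 replicate 2 just 15.1% of its 3p reads began at the RefSeq 5′ end, against 99.5% to 100% in the other 3 libraries. The Dlk1-Meg3 list had 0.714% and 0.842% at E13.5 and 0.727% and 2.21% at E15.5, with 1 of 46 sets called higher, beside 0.509% of all sets, and 34 of the 46 log2 fold changes above 0, beside 168 of the 393. Without E15.5 replicate 2 only 16 of 47 were above 0, so the direction of this list rested on that library.

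Of the lists that follow, the Mir200 and Mir141 family and the Mir34 and Mir449 family summed to less than 1 unit in E15.5 replicate 2. The Mir302 and Mir367 cluster summed to about 1 unit there and to about 1 unit in E13.5 replicate 1. The Mir302 and Mir367 cluster had 0.0187% and 0.0172% of miRNA reads at E13.5 and 0.0932% and 0.252% at E15.5. It had 0 of 5 sets called, beside 0.509% of all sets called higher and 0% lower. The Sfmbt2 cluster, imprinted and placental, overlapped, with 1.29% and 1.07% at E13.5 and 1.41% and 1.19% at E15.5. Its member Mir669c had 0.914% and 0.728% at E13.5 and 1.34% and 1.14% at E15.5. The Mir10, Mir99, Mir100 and Mir125 families had 4.56% and 6.33% at E13.5 and 6.08% and 7.60% at E15.5, and the Mir29, Mir148 and Mir152 families had 0.618% and 0.614% at E13.5 and 0.562% and 1.01% at E15.5. Both overlapped between stages. The Mir200 and Mir141 family had 0.216% and 0.231% at E13.5 and 0.162% and 0.110% at E15.5. The Mir34 and Mir449 family had at most 0.0842% in any library.

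**Figure D3:**
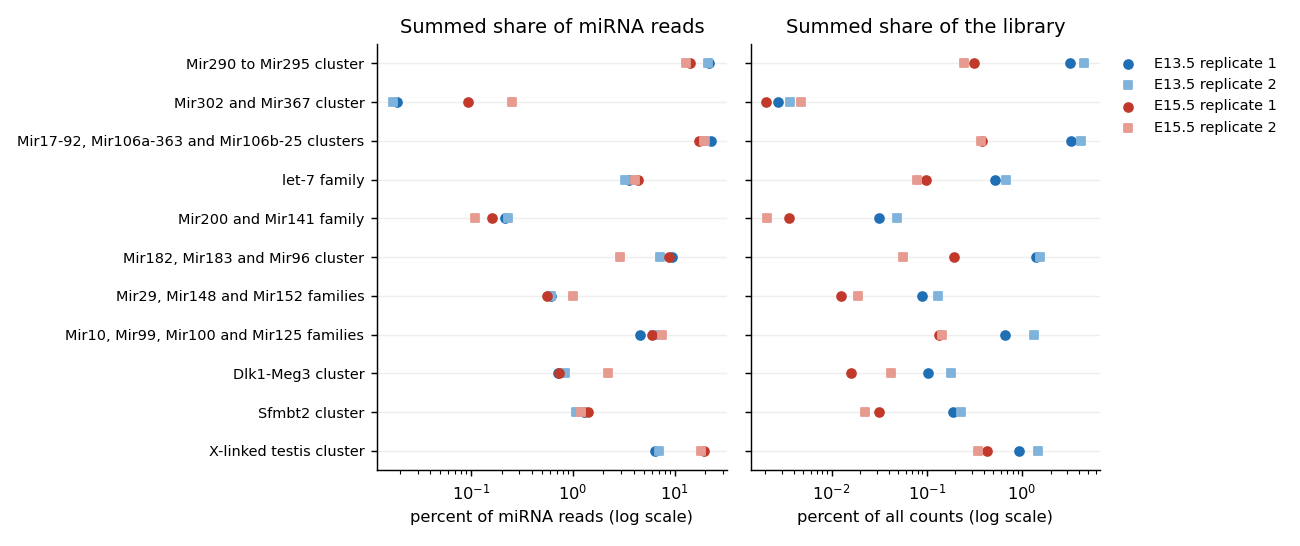
Summed share of 11 lists of miRNA gene sets in the 4 libraries, as percent of miRNA reads (left) and as percent of all counts (right), both on log axes; each row is a list, and colour and symbol give the stage and replicate. For the X-linked testis cluster the E15.5 symbols lie to the right on the left-hand axis, at 19.6% and 18.1%, and to the left on the right-hand axis, at 0.434% and 0.341%.

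Markers of other cells were low at both stages. Of the gonadal soma markers Mir202, Mir140 and Mir214, 3 of 3 were detected in all 4 libraries, summing to 0.324% and 0.480% of miRNA reads at E13.5 and 0.494% and 0.584% at E15.5, which did not overlap. The vessel markers summed to 0.0493% and 0.131% at E13.5 and 0.143% and 0.329% at E15.5, which did not overlap either. Of the 3 vessel sets, 1 was above and 1 below in both E15.5 libraries, and of the 3 soma sets 1 was above and 0 below. In E15.5 replicate 2 the soma and vessel sums rested on 2.62 and 1.48 units, and in E13.5 replicate 1 the vessel sum rested on 2.61 units. The leukocyte markers ran from 0% to 0.0448% and the erythroid markers from 0% to 0.0950%. The erythroid markers summed to 0 and 73 counts at E13.5 and 0 and 477 counts at E15.5. Nearly all came from list members other than Mir451a, the defining erythroid miRNA. Mir451a had 0 counts in 3 of the 4 libraries and 1 count in E15.5 replicate 2. Mir292, of the cluster abundant in pluripotent and early germ cells, had 8.18% to 13.9% in the 4 libraries. The part of somatic miRNAs in the differences above was not tested.

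The mean length of miRNA reads was 22.4 to 22.5 nt in the 4 libraries. Reads from the 5p arm were 60.9% and 62.9% at E13.5 and 59.6% and 53.0% at E15.5, lower at E15.5 in both libraries. miRNA reads with a 5′-U were 54.9% and 55.4% at E13.5 and 63.3% and 68.0% at E15.5, which did not overlap.

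Among the other annotated small RNAs, 51 of 272 genes tested were lower as a share of all counts (18.8%) and 2 were higher (0.735%) in edgeR, with a median log2 fold change of -3.05. The log2 fold changes of the 51 ran from -2.11 to -10.53. Of 210 snoRNAs, which guide the modification of rRNA, 41 were lower and 0 higher. Of 11 snRNAs of the spliceosome 3 were lower, and of 20 mitochondrial tRNAs 4 were lower. Unlike that of miRNA sets on the same measure, the count of lower genes depended on single libraries. It was 94 without E13.5 replicate 1, 18 without E13.5 replicate 2, and 1 without either E15.5 replicate 1 or E15.5 replicate 2. With the reads of these genes alone as library size, 0 were lower and 0 higher in edgeR, with 25 at an unadjusted p under 0.05.

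snoRNA reads were 1.56% and 4.47% of all counts at E13.5 and 0.374% and 0.811% at E15.5, 5.09-fold lower on average (exact permutation test, p = 0.33). The ratio of E15.5 to E13.5 was 0.196. It was 0.379 without E13.5 replicate 2 and 0.124 without E15.5 replicate 2, and with snoRNA reads of all lengths set against the reads outside 24 to 32 nt it was 1.01, where snoRNA reads of 24 to 32 nt are in the numerator alone. Rnu3b1, one of the U3 genes that act in rRNA processing and here joined with its copies, had 0.372% and 0.375% at E13.5 and 0.0877% and 0.0852% at E15.5. It fell by 2.11 (standard error 0.74, edgeR adjusted p = 0.033). Gm23212, another snoRNA gene, had 0.221% and 0.526% at E13.5 and 0.0297% and 0.0446% at E15.5, and fell by 3.33. The spliceosomal U1 genes, joined under Rnu1a1, had 0.176% and 0.212% at E13.5 and 0.0133% and 0.0310% at E15.5, and fell by 3.13. Each of these genes was lower in both E15.5 libraries. Rny1, a Y RNA bound by the Ro protein and here joined with its copies, had 0.0575% and 0.137% at E13.5 and 0.00567% and 0.00609% at E15.5, and fell by 4.05 (edgeR adjusted p = 0.0020). Rny3 had 0.0737% and 0.0817% at E13.5 and 0.0186% and 0.0189% at E15.5, a log2 fold change of -2.05 that did not pass (edgeR adjusted p = 0.088). The mitochondrial rRNA mt-Rnr2 had 0.100% and 0.122% at E13.5 and 0.0211% and 0.0304% at E15.5, also short of the threshold (edgeR adjusted p = 0.061). The mitochondrial tRNA mt-Tv overlapped between stages. Rnu2-10, a U2 gene of the spliceosome, had 0.0505% and 0.102% at E13.5 and 0.0155% and 0.00684% at E15.5, and fell by 2.77 (edgeR adjusted p = 0.030). The 5S rRNA gene n-R5s106 had 0.0513% and 0.232% at E13.5 and 0.00466% and 0.0213% at E15.5, and fell by 3.45 (edgeR adjusted p = 0.010).

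Both genes that rose had almost no reads at E13.5, and their E15.5 reads were largely of piRNA length, as were E15.5 reads in general. Of all E15.5 counts, 82.6% and 86.0% were of 24 to 32 nt, and 64.7% and 67.4% were of that length with a 5′-U. CT010467.1 is annotated as an rRNA gene at chr17:39846353-39848827 on the minus strand of GRCm38, where the lincRNA Gm42418 is annotated on the opposite strand and the lincRNA AY036118 on the same strand. It had 0 and 61 counts at E13.5 and 7252 and 29251 counts at E15.5, or 0.0533% and 0.110% of all counts (edgeR adjusted p = 1.4e-07). Reads of 24 to 32 nt made up 75.1% and 71.8% of its E15.5 counts, below their share of all counts, and 64.0% and 58.9% began with U. They spread over 172 and 34 distinct sequences. Terc, the RNA component of telomerase at chr3:96414437-96414859 on the minus strand, had 0 and 1 counts at E13.5 and 366 and 821 at E15.5 (edgeR adjusted p = 0.033). Its 821 counts in E15.5 replicate 2 were fewer than the 1117 counts of 1 unit there, so no fold is given from the counts. Its E15.5 reads came from 8 and 2 distinct sequences, 100% of them 24 to 32 nt long, and 90.4% and 100% began with U. Without E13.5 replicate 1, E13.5 replicate 2, E15.5 replicate 1 or E15.5 replicate 2 its edgeR adjusted p was 0.082, 0.10, 0.24 or 0.18, while the fitted log2 fold change stayed between 8.93 and 11.6 against 9.60 with all libraries. It also missed the threshold without a filter (adjusted p = 0.060) and with only the 4 libraries compared (adjusted p = 0.086), at log2 fold changes of 9.60 and 9.66. With the reads of the other small RNAs alone as library size, CT010467.1 had a larger log2 fold change, 11.6 against 9.01, and did not pass (edgeR adjusted p = 0.087).

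Reads of 15 to 24 nt that ended in CCA, as mature tRNAs do, were 10.7% and 11.1% of all counts at E13.5 and 1.55% and 1.69% at E15.5, 6.71-fold lower on average (exact permutation test, p = 0.33). Among them, reads of 17, 18 and 22 nt were also taken apart. Those of 22 nt went from 3.41% and 3.28% to 0.379% and 0.413%. Nuclear tRNA genes are outside the annotation used here, so these reads were not assigned to tRNAs. Set against the reads outside 24 to 32 nt, with 24-nt reads in the numerator alone, the ratio was 0.760.

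Reads of 15 to 40 nt were divided by length and first nucleotide into 104 classes, of which 22 were higher (21.2%) and 40 lower (38.5%) at E15.5 in edgeR. The higher classes ran from 25 to 31 nt and included all 4 nucleotides from 26 to 29 nt. The lower ones included all 4 nucleotides at each length from 15 to 23 nt. Among the largest rises, 27-nt 5′-U reads went from 1.48% and 2.39% of all counts to 15.8% and 15.9%, and 26-nt 5′-U reads from 1.53% and 2.19% to 15.6% and 14.6%. The 28-nt 5′-U reads went from 1.18% and 2.01% to 11.7% and 12.4%, and those of 29 nt from 0.690% and 1.32% to 6.83% and 7.99%. Classes that did not begin with U rose too, such as 28-nt 5′-A reads, from 0.175% and 0.263% to 1.45% and 1.60% (log2 fold change 2.80, standard error 0.46, edgeR adjusted p = 3.3e-08). The largest falls were in 23-nt 5′-C reads, from 0.808% and 1.19% to 0.146% and 0.0537%, and in 22-nt 5′-A reads, from 2.79% and 3.47% to 0.383% and 0.305%. Reads of 15 to 19 nt had 56.0% and 36.4% at E13.5 and 10.5% and 4.79% at E15.5, a ratio of 0.166, or 0.104 without E15.5 replicate 1. At the long end the stages overlapped, with 0.633% and 4.07% of reads at 43 nt at E13.5 and 0.252% and 1.66% at E15.5.

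**Figure D4:**
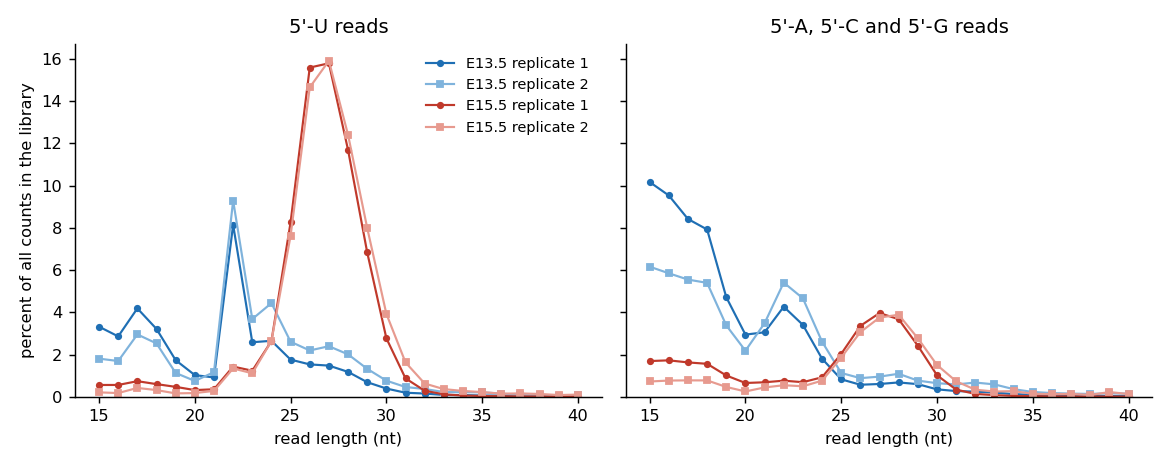
Percent of all counts (y axis) at each read length from 15 to 40 nt (x axis) in the 4 libraries, for reads with a 5′-U (left) and for all other reads (right); lines join the values of a library. In both E15.5 libraries the 5′-U reads peak at 27 nt near 16%, and in both E13.5 libraries at 22 nt, and the other reads shift from 15 to 23 nt towards 25 to 30 nt.

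The 5′-U reads of 26 to 29 nt also differed between stages in where they matched. They were 4.88% and 7.92% of all counts at E13.5 and 49.9% and 50.9% at E15.5. Exact sense matches to protein-coding transcripts made up 44.3% and 43.04% of them at E13.5 and 10.2% and 10.4% at E15.5. Reads without a match to any annotated transcript made up 46.8% and 46.5% at E13.5 and 79.8% and 79.5% at E15.5, and antisense matches 1.83% and 2.25% at E13.5 and 4.80% and 4.91% at E15.5. The stages did not overlap in any of these classes. As a share of all counts, protein-coding matches went from 2.16% and 3.41% to 5.10% and 5.28%, 1.87-fold on average, while unmatched reads went from 2.28% and 3.68% to 39.8% and 40.5%, 13.46-fold on average. Antisense reads were 18.3-fold and long non-coding RNA reads 8.53-fold higher on the same measure. A match to a transcript does not exclude other places in the genome, which was not used here.

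**Figure D5:**
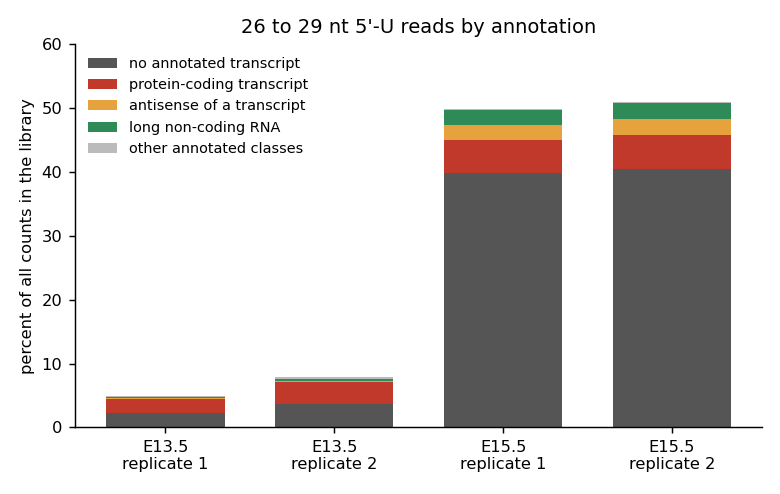
Percent of all counts (y axis, bars from 0) made up by 26 to 29 nt 5′-U reads in the 4 libraries, divided by the annotation each read matched. Unmatched reads fill most of the E15.5 bars, at 39.8% and 40.5%, whereas unmatched and protein-coding reads are of similar size at E13.5.

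Among protein-coding genes, chosen after their values were seen as those with the largest shares of these reads, D10Wsu102e came first in all 4 libraries. It had 0.112% and 0.135% of all counts at E13.5 and 0.700% and 0.704% at E15.5, and 13.7% and 13.3% of all coding matches at E15.5 against 5.17% and 3.95% at E13.5. Tmem245 had 0.00168% and 0.00593% at E13.5 and 0.0398% and 0.0510% at E15.5, 11.9-fold higher on average. Noct, a gene under circadian control, had 0.0147% and 0.0117% at E13.5 and 0.0389% and 0.0813% at E15.5. These genes did not overlap between stages. Abl2, a tyrosine kinase, had 0.0417% and 0.0443% at E13.5 and 0.0328% and 0.0305% at E15.5, so its share was lower at E15.5 while most reads of this size were higher. Pou2f1, a transcription factor, had 0.0243% and 0.0409% at E13.5 and 0.0197% and 0.0137% at E15.5. These values come from few distinct sequences in some libraries, such as 24 for Abl2 in E13.5 replicate 1 and 18 in E15.5 replicate 2, and were not tested.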

How the data were processed

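Small RNA libraries of E13.5 and E15.5 male mPGCs were compared, with 2 libraries per group, while 4 libraries of E12.5 mPGCs and SGET mPGCLCs entered the fits for their spread. The authors trimmed reads with cutadapt 3.2, removed 4 random bases from each end, mapped them to GRCm38 with STAR 2.5.3a, allowing 2 mismatches and 100 places with a single place kept at random, and deposited unnormalized counts, with a file per library listing every sequence and its reads. Library totals ran from 7447873 to 26552524, and 3 counts are 1.1e-05% to 4.0e-05% of a library.

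Exact matches of each sequence to the transcripts of GENCODE M21 were found in Python 3.11.15. Reads matching several miRNA genes were counted for the joined set. Counts were tested with edgeR 4.0.16 (quasi-likelihood test, filterByExpr, all 4 groups, Benjamini-Hochberg adjustment, R 4.3.3), with the file total or the miRNA reads as library size and no further scaling, and with DESeq2 1.42.0 as an alternative. Standard errors are those implied by the F statistic. The fitting code was run on simulated data with known changes. These were drawn with less spread than the miRNA counts have, so the run does not give error rates for these data. The mPGC replicates came from different litters, and p-values measure the spread between these few libraries.

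Genes were named by rule: the 12 sets with the largest share of miRNA reads at each stage, the 10 largest rises and falls past the threshold with at least 0.02% of miRNA reads and no overlap, list members of at least 0.5%, the 3 largest genes of each small RNA class, and the 6 length classes that rose and fell most, of which some are described together. Members and lists were chosen with earlier results of these data known. The upper peak of counts per sequence was read from a histogram of log counts from 8 upwards, and counts divided by it were an alternative chosen after seeing the data, as were the coding genes of piRNA-sized reads.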

Additional observations from a re-analysis of the deposited data

How the results depend on the processing

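Directions of the 6 class shares were kept under each alternative except that of snoRNAs, which reversed to 1.01 when reads of all lengths were set against the reads outside 24 to 32 nt. Counts within miRNA reads (higher, lower) were 9 and 6 with DESeq2, 17 and 3 with its median of ratios, 5 and 1 with counts divided by the upper peak (chosen after seeing the data), and 1 higher with TMM. A fit with a replicate block called 1 higher. Leaving out one library gave 1 to 14 higher and 0 to 23 lower. As shares of all counts, 146 sets were lower with DESeq2 and 131 with counts divided by the upper peak, and 0 to 2 were higher with one library left out. Of the other small RNAs, 105 were lower with DESeq2, 26 lower and 1 higher without a filter, 5 lower and 1 higher with only the 2 groups compared, 0 and 0 with their own reads as library size, and 1 to 94 lower and 1 to 2 higher with one library left out. Mir92-1 within miRNA reads reversed to 0.0053 with 18 to 26 nt reads, 0.0025 with reads of a single gene, 0.25 with TMM and 0.54 with the median of ratios, and ran from -0.31 to 0.20 with one library left out. The causes were not tested. Counts of length classes stayed within 1.5 times.

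Replicate numbers came from the labels. The mPGC replicates of a stage came from different litters by the study's methods. What libraries of different stages with the same number shared is not given. Deviations of same-numbered libraries correlated at 0.049 over miRNA sets, 0.089 over other small RNAs and 0.89 over length classes. Of the miRNA sets refitted by name, CT010467.1 and Terc, the replicate block changed the call of Mir434 alone. For the other named small RNAs and length classes it was run as counts: 50 small RNAs were lower and 2 higher, and 40 length classes were lower and 21 higher.

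Depth limits miRNA values in E15.5 replicate 2, where 1 unit is 0.223% of miRNA reads. An exact permutation test of 2 against 2 shows nothing of stability. Counts per sequence include PCR copies, and shares do not give amounts per cell.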

Other observations

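In the libraries outside the comparison, the X-linked testis cluster summed to 1.07% and 1.30% of miRNA reads at E12.5 and to 0.0358% and 0.0808% in day 6 mPGCLCs of the SGET line. Both E13.5 libraries, at 6.46% and 6.98%, and both E15.5 libraries lay above all of these. The Mir290 to Mir295 cluster summed to 30.4% and 29.6% at E12.5 and to 36.04% and 36.7% in SGET mPGCLCs, above all E13.5 and E15.5 libraries. These values were not tested.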
